A study of Sus scrofa with 2 samples.

Results

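The marginal cell genes of potassium secretion are a group of 6 genes, SLC12A2, BSND, KCNE1, KCNQ1, LRP2 and ESRRB, which were looked up by gene symbol, gene description or pig Ensembl name among the 27622 features of the deposited expression values. For 4 of the 6 genes a feature was matched, 1 each, namely SLC12A2, BSND, KCNE1 and ESRRB. No feature was matched to KCNQ1 or LRP2, and both are not analysed here. RNA-seq was carried out on dissected lateral wall of the cochlea of Rongchang pigs, which holds the stria vascularis (SV) and other tissue. There was 1 library of genotype Mitf R/r and 1 library of genotype Mitf r/r. Where the text below speaks of an SV as a sample, this dissected wall is meant. Pigs of genotype Mitf R/r carry 1 copy of the mutant r allele and Mitf r/r pigs carry no other allele, so that both libraries hold the r allele and there was no Mitf R/R library. Homozygous pigs are albino and lose their hearing. The study also found hearing loss in a small part of the R/r pigs. The sample labels give the age of both as postnatal day 1, whereas the study describes its SV RNA-seq at an embryonic stage; the labels and the study thus differ on the stage. The sources used here do not say whether a library came from 1 animal or from pooled animals.

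Marginal cells line the SV on the side of the endolymph, the potassium-rich fluid of the cochlear duct, and move potassium into it. Potassium enters a marginal cell across its basolateral membrane through the cotransporter SLC12A2 (NKCC1) and the Na,K-ATPase, chloride that came in with it leaves again through channels that include the subunit barttin (BSND), and potassium exits at the apical membrane through the channel formed by KCNQ1 and KCNE1. LRP2 (megalin) is an endocytic receptor of the apical membrane, and ESRRB is an orphan nuclear receptor that regulates ion transport genes in these cells. Loss of SLC12A2, KCNQ1, KCNE1, BSND or ESRRB is known to cause deafness in mammals. The comparison asks which of these steps were transcribed at the stage sampled. It also asks whether their transcripts differed between an SV with 1 R allele of Mitf and an SV with none. The study reports that the r allele removes the M isoform of MITF, while the A and H isoforms were similar in R/R and r/r cochleae.

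Each matched gene was expressed in both SVs at well above an RPKM value of 1, the level used here as detection (RPKM, reads scaled to the length of the gene model and to the mapped reads of the library). None of the 4 was 2-fold apart: SLC12A2 was slightly higher in the r/r library, and BSND, ESRRB and KCNE1 were lower there by 27.1%, 19.4% and 10.9%, although KCNE1 was not lower when centred on the median of a list of epithelial marker genes. The basolateral entry of potassium, the recycling of chloride and the apical exit were therefore each represented by at least 1 transcript in both libraries, while the pore-forming subunit of the exit channel was among the genes without a match. RNA of the whole tissue does not tell whether fewer cells of a type or less RNA per cell lies behind a lower value.

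Depth bears on how small a difference can be seen. The whole reads behind the RPKM values were worked out from the values, with totals of 15829244 reads in the R/r and 14258672 in the r/r library, so that 1 read on a gene model of 1 kb was worth 0.0632 and 0.0701 RPKM. Ratios are given as log2 of r/r over R/r with exact Clopper-Pearson 95% intervals on these reads, and the intervals cover counting error only. There was 1 library per genotype, so the differences have no replicate check, no test was possible, and "higher" and "lower" compare these libraries and not the genotypes. Across the 16331 genes compared, which were above 0 in both libraries and reached 1 RPKM in one or both, the log2 ratio had a median of -0.02.

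The basolateral cotransporter SLC12A2 (ENSSSCG00000014255) had 312 RPKM in the R/r library and 334 RPKM in the r/r library, from 5950 and 5735 reads. It was the highest of the 4 genes in both libraries, and 98.9% of the features above 0 lay lower in each. Its log2 ratio was 0.10 (95% interval 0.05 to 0.15), a difference of 7.0%. Of the 271 genes read as deeply or more so, 32.8% had a higher ratio, so that a difference of this size was common among deeply read genes. SLC12A2 is also known from fibrocytes of the spiral ligament, which are part of the lateral wall, and its level in the tissue is not that of marginal cells alone.

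BSND (ENSSSCG00000020989), the chloride channel subunit barttin, was the lowest of the 4 genes. It had 10.5 RPKM in the R/r library and 7.62 RPKM in the r/r library, from 160 and 105 reads. This placed it near the middle of the expressed features, of which 59.6% and 53.1% lay lower. The log2 ratio was -0.46 (-0.83 to -0.09), the lowest point value of the 4 and the one with the widest interval. Of the 9902 genes with no fewer reads than BSND, 3.31% had a lower ratio.

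KCNE1 (ENSSSCG00000012049), the accessory subunit that slows and enlarges the current of KCNQ1, had 278 RPKM in the R/r library and 248 RPKM in the r/r library. The reads were 1718 and 1379. It ranked 253rd and 318th among all features and was the second highest of the 4 genes in either library. The log2 ratio was -0.17 (-0.27 to -0.06), and 11.8% of the 1798 genes with no fewer reads had a lower ratio.

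ESRRB (ENSSSCG00000002388) had 69.6 RPKM in the R/r library and 56.1 RPKM in the r/r library, from 2000 and 1452 reads. Over 90% of the expressed features lay lower in either library, 93.0% in the R/r and 91.1% in the r/r library. The log2 ratio was -0.31 (-0.41 to -0.21), and 4.22% of the 1564 genes with no fewer reads had a lower ratio. Its interval lay further from 0 than those of BSND and KCNE1.

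**Figure D1:**
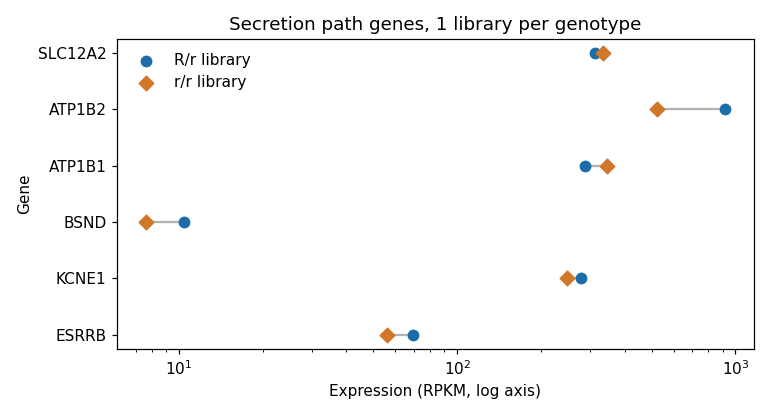
RPKM values on a log axis in the R/r library (circles) and the r/r library (diamonds) for the 4 matched genes and 2 Na,K-ATPase beta subunits, 1 library per genotype and hence no error bar. SLC12A2 and KCNE1 lie between 248 and 334 RPKM, near the pump subunit ATP1B1, while BSND lies at 10.5 and 7.62 RPKM.

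Read as a group, 0 of 4 genes were at least 2-fold apart, against 3.99% of the 16331 genes compared (2.20% lower and 1.78% higher in the r/r library). The interval lay wholly below 0 in 3 genes, BSND, ESRRB and KCNE1, and wholly above 0 in 1, SLC12A2. Over all genes compared, 14.4% had an interval below 0 and 11.2% had one above 0; among the 9902 genes with at least the reads of BSND these shares were 18.4% and 14.7%. The median log2 ratio of the 4 genes was -0.24, against -0.02 over all genes. With so few genes, chosen with earlier results of these data known, the counts describe these genes and carry no test.

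**Figure D2:**
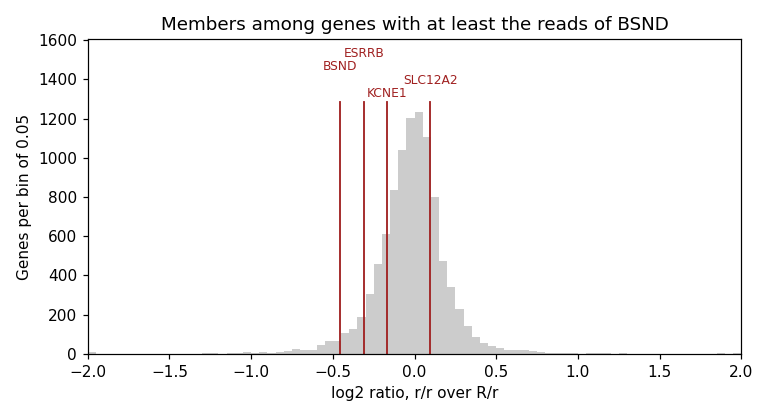
Number of genes per bin of 0.05 in log2 ratio, r/r over R/r, for the 9902 genes with at least the reads of BSND; ratios beyond 2 in either direction are counted in the end bins, and lines mark the 4 matched genes. SLC12A2 at 0.10 and KCNE1 at -0.17 sit within the bulk, ESRRB at -0.31 and BSND at -0.46 on its lower flank.

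RPKM values are scaled to the length of the gene model, so a ratio of levels between genes rests on the models being complete. The lengths worked out with the reads were 1203 bases for SLC12A2, 1815 for ESRRB, 966 for BSND and 390 for KCNE1. Whether these models cover the whole transcripts was not checked. The change of such a ratio between the libraries does not depend on the lengths. KCNE1 stood at 0.891 times the level of SLC12A2 in the R/r library and at 0.742 times in the r/r library, a log2 change of -0.26 (-0.38 to -0.15). SLC12A2 stood at 4.49 times the level of ESRRB in the R/r library and at 5.96 times in the r/r library, a log2 change of 0.41 (0.30 to 0.52). Against BSND, the level of SLC12A2 went from 29.9 to 43.9 times, a log2 change of 0.55 (0.19 to 0.93). In each of these pairs the balance lay further towards the cotransporter in the r/r library by more than counting error. KCNE1 stood at 4.0 and 4.42 times the level of ESRRB, a log2 change of 0.14 with an interval just above 0 (0.0018 to 0.29). The balance of BSND with KCNE1 and with ESRRB could not be told from no change at this depth, with intervals of -0.09 to 0.67 for KCNE1 over BSND and -0.53 to 0.23 for BSND over ESRRB. The order SLC12A2, KCNE1, ESRRB and BSND was the same in both libraries, and with no replicates it is not known whether SLC12A2 and KCNE1, the closest neighbours, differ beyond the spread between animals.

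The Na,K-ATPase drives the secretion by keeping sodium low in the marginal cell. Its beta subunits, which bring the pump to the membrane, differed in direction, with ATP1B2 at 915 and 522 RPKM (-0.81, -0.85 to -0.77) and ATP1B1 at 288 and 345 RPKM (0.26, 0.16 to 0.36) in the R/r and r/r libraries. ATP1B2 had the largest difference among the 31 other path genes compared, short of 2-fold. Of the 124 genes with no fewer reads than ATP1B2, 0% had a lower ratio.

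**Figure D3:**
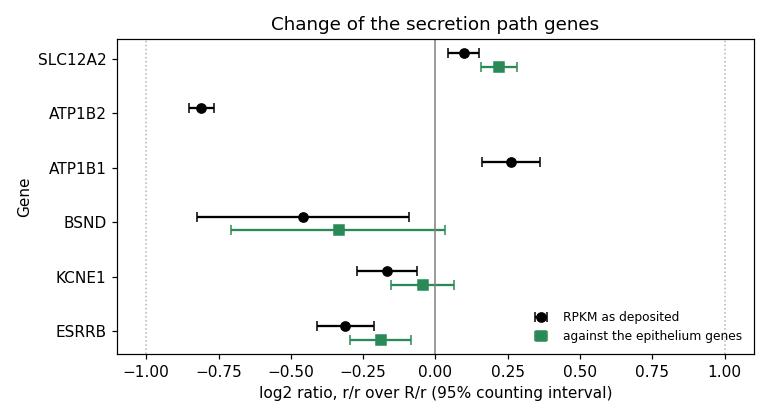
Log2 ratio, r/r over R/r, with 95% counting intervals for the 4 matched genes and 2 Na,K-ATPase beta subunits (black circles), and for the 4 genes against the summed reads of the epithelium genes (green squares); dotted lines mark 2-fold. No point reaches 2-fold, and the intervals of KCNE1 and BSND lie below 0 as deposited but span 0 against the summed epithelium reads.

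Other subunits of the exit channel families were low beside KCNE1. Of 7 other KCNQ and KCNE genes 6 were matched, and KCNE3, which pairs with KCNQ1 in other epithelia, was the highest with 6.91 RPKM in the R/r library and 5.11 RPKM in the r/r library. KCNE1 stood at 40.3 times the level of KCNE3 in the R/r library and at 48.5 times in the r/r library. The level of KCNE3 came from 27 and 18 reads on a gene model of 247 bases. KCNE4 had 3.69 RPKM in both SVs. KCNQ5 had 0.740 and 0.647 RPKM, under the level of detection. KCNQ3, KCNE2 and KCNE5 had no more than 2 reads in either library.

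Among the relatives of SLC12A2, most of which carry chloride with sodium, potassium or both, 6 of 7 were matched and 3 were compared. SLC12A4 (KCC1), a potassium chloride cotransporter of many cell types, had 101 RPKM in the R/r library and 116 RPKM in the r/r library, a log2 ratio of 0.20 (0.14 to 0.26). SLC12A7 (KCC4) had 40.7 and 46.1 RPKM (0.18, 0.04 to 0.33). SLC12A2 and these outward cotransporters had point values above 0, whereas SLC12A9 had one of -0.13, and the median of the 3 genes compared was 0.18. SLC12A1 (NKCC2), the kidney form of the cotransporter, had 0.496 and 0.402 RPKM, both under the level of detection.

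All 6 kinases of the WNK and SPAK pathway, which switches SLC12A2 on by phosphorylation, were above 1 RPKM in both SVs. WNK4 was the highest with 101 RPKM in the R/r library and 76.9 RPKM in the r/r library, and its log2 ratio of -0.39 (-0.44 to -0.34) was the 1 of 6 with an interval off 0. WNK1 had 28.8 and 28.6 RPKM. STK39 (SPAK), which phosphorylates the cotransporter, had 4.91 and 3.74 RPKM, with an interval of -0.89 to 0.09, and OXSR1 had 9.44 and 9.50 RPKM.

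LRP2 itself had no match, but 10 of 11 partners and relatives did. The chaperone LRPAP1 (RAP), which escorts LRP2 and its relatives through the secretory path, had 226 RPKM in the R/r library and 227 RPKM in the r/r library. The endocytic adaptor DAB2, which binds the tail of LRP2, had 175 and 178 RPKM. Both were high and nearly equal in the libraries, with log2 ratios of 0.00 (-0.05 to 0.06) and 0.03 (-0.06 to 0.11), and neither is confined to marginal cells. Cubilin (CUBN), the co-receptor of LRP2 in kidney, had 9 and 3 reads, and its partner AMN was listed at 0 in both. Of the 8 genes of this list that were compared, LRP8 (-0.40, -0.62 to -0.18) and LRP5 (-0.21, -0.31 to -0.11) had intervals below 0 and VLDLR had one above (0.23, 0.11 to 0.36).

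ESRRB was the highest of the estrogen related receptors, which read the same DNA element. ESRRA had 19.996 RPKM in the R/r library and 21.8 RPKM in the r/r library, and ESRRG had 9.0 and 7.53 RPKM. ESRRB stood at 3.48 times ESRRA in the R/r library and at 2.57 times in the r/r library, a log2 change of -0.44 (-0.59 to -0.28), whereas its balance with ESRRG, 7.73 and 7.45 times, changed by -0.05 (-0.36 to 0.25). The coactivator PPARGC1A had 12.4 and 13.3 RPKM, and the co-repressor NRIP1 had 9.23 and 8.24 RPKM, both with intervals that span 0.

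Apical sodium absorption, which offsets part of the cation secretion, was also represented. The subunits SCNN1A, SCNN1B and SCNN1G of the epithelial sodium channel had 12.7, 6.78 and 2.06 RPKM in the R/r library and 13.8, 6.24 and 1.40 RPKM in the r/r library. Only SCNN1G among the 5 genes compared in this list had an interval off 0, with a log2 ratio of -0.56 (-1.03 to -0.09). P2RX2, an ATP-gated cation channel that shunts potassium in the cochlear duct, had 59.5 and 51.7 RPKM (-0.20, -0.44 to 0.03). The beta adrenergic receptor ADRB1, which stimulates the secretion, had 2.05 and 1.66 RPKM, and P2RY4, a purine receptor that dampens it, was listed at 0 in both.

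Over the 7 lists of other path genes, 42 of 46 genes were matched and 31 were compared. None was at least 2-fold apart, 5 had an interval below 0 and 5 had one above, against 3.99%, 14.4% and 11.2% of all genes compared. The median log2 ratio was -0.12, in a range from -0.81 to 0.26.

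**Figure D4:**
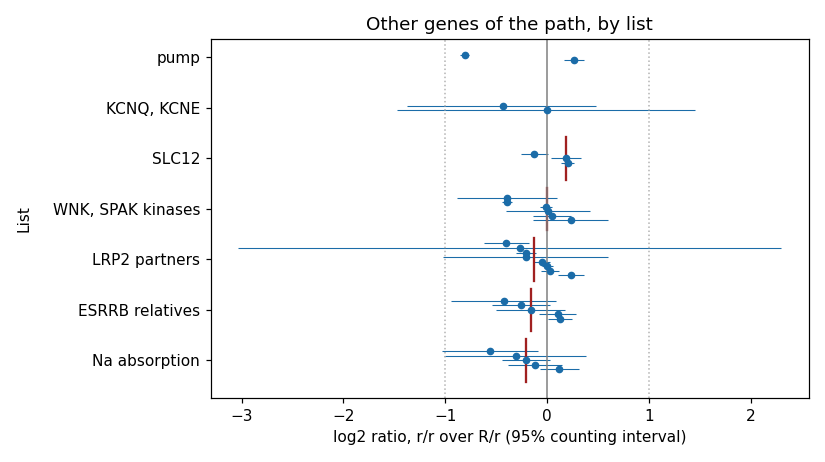
Log2 ratio, r/r over R/r, of the 31 other path genes compared, by list, each with its 95% counting interval; red bars mark medians of lists with at least 3 genes compared and dotted lines 2-fold. Every point lies within 2-fold, and the lowest is ATP1B2 at -0.81.

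Markers of other cells of the lateral wall differed as well. The intermediate cell and melanocyte list summed to 270 RPKM in the R/r library and 8.81 RPKM in the r/r library. All 8 genes were matched, and all 6 compared lay 2-fold or more below the R/r library, against 2.20% of all genes compared. MLANA had 12.0 RPKM in the R/r library and no read in the r/r library. With 1 value at 0, the values do not fix its reads. The 8 reads on 42 bases found for it are only the lowest fit. TYRP1 had 1 read in each library. The study reports that some other markers of melanocytes or intermediate cells were still expressed in its r/r SVs. From this and electron microscopy of prenatal SVs, it holds that intermediate cells were present in r/r embryos and disappeared around birth. The sum of this list is thus not a measure of the number of these cells. The bone list summed to 670 and 439 RPKM, with 3 of 5 genes at least 2-fold lower, against the same 2.20%, and SPP1 higher (0.27). The blood list summed to 3034 and 2447 RPKM with no gene 2-fold apart, and of the lists for hair cells, capillary, macrophages and muscle 2 genes each were compared, with none at 2-fold. Of the fibrocyte list 6 of 8 genes were compared, with a median of 0.15, 4 intervals above 0 and COCH lower (-0.47, -0.49 to -0.46). Over all genes compared, 11.2% had an interval above 0 and 14.4% had one below. Among the 9902 genes with at least the reads of BSND these shares were 14.7% and 18.4%. No share was taken at the depth of the fibrocyte genes. The marginal cell list, which the 4 genes share with ATP1B2, had 5 of 7 genes matched, all above the level of detection in both SVs; since it is made mostly of the same genes, it is no separate check of the tissue label. The basal cell list had 3 of 5 genes matched and a median of -0.20, the supporting cell list 5 of 6 and -0.34, and the Reissner and roof epithelium list 4 of 4, of which 3 were compared with a median of -0.40. In the supporting cell list TECTA, a protein of the tectorial membrane, was higher in the r/r library (0.86, 0.59 to 1.13), and with a minimum of 5 RPKM the median was 0.27. None of the genes compared in these 3 lists was 2-fold apart. Of the neuron and Schwann cell list 3 genes were matched and 0 reached 1 RPKM. The part of bone, blood and other tissue in the differences of SLC12A2, BSND, KCNE1 and ESRRB was not tested.

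Of the epithelium list 10 genes were matched and 9 were compared, with a median log2 ratio of -0.23. An interval below 0 was found in 7 and one above in none, against 14.4% and 11.2% of all genes compared. Among the 9902 genes with at least the reads of BSND these shares were 18.4% and 14.7%. No share was taken at the depth of this list. CLDN7 had no more than 1 read in either library. The list summed to 660 RPKM in the R/r library and 596 RPKM in the r/r library. Its reads, 13848 and 11459, gave a log2 ratio of -0.12 (-0.16 to -0.09). Set against these reads, a scaling chosen after seeing the data, KCNE1 had a log2 ratio of -0.044 (-0.15 to 0.07) and BSND one of -0.33 (-0.71 to 0.03), so that their intervals no longer lay off 0. ESRRB had -0.19 (-0.29 to -0.08) and SLC12A2 0.22 (0.16 to 0.28) on this scale. Centred instead on the median of the list, also chosen after seeing the data, KCNE1 had 0.060, ESRRB -0.085, BSND -0.23 and SLC12A2 0.32, so that the direction for KCNE1 turned with the scaling. The part of the epithelium genes in the differences was not tested.

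**Figure D5:**
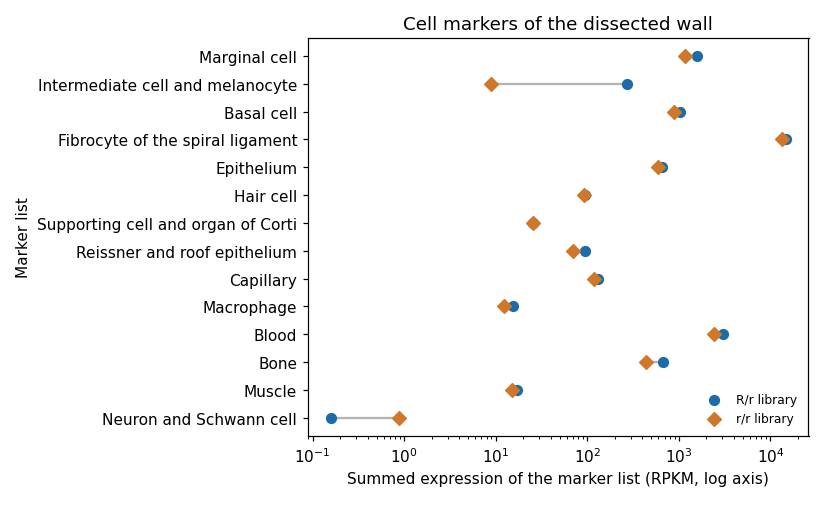
Summed RPKM values of each marker list on a log axis in the R/r library (circles) and the r/r library (diamonds), 1 library per genotype. The intermediate cell and melanocyte list lies at 270 and 8.81 RPKM, while the marginal cell list lies at 1586 and 1168 RPKM. Most of the difference in the marginal cell list comes from ATP1B2, at 915 and 522 RPKM. The 4 matched genes alone sum to 671 and 646 RPKM.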

How the data were processed

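Total RNA from cochlear lateral wall, which holds the SV, was sequenced in 1 library per genotype. Per the submitters' processing notes the reads were aligned to Sscrofa10.2 with TopHat2 2.0.7; neither the read counter nor the annotation is named: both are not given in the sources used here. The deposited values are RPKM, which the authors scaled to gene model length and mapped reads. A further 2 columns, with the authors' own differences and ratios for 22 features, were not used.

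Features were named by the symbol in the deposited values (16376), by description (289) or by Ensembl name (1634); 9323 stayed without a name, of which 4530 reached 1 RPKM, and 0 Ensembl identifiers of KCNQ1 or LRP2 were found. Of features that shared a name, that with the highest mean was taken. The log2 ratio was taken without a pseudocount. Whole reads were worked out from RPKM: library totals were chosen so that gene model lengths came out whole, which held for 78.0% of 300 features, and reads were found for 100% of 20862 features above 0. These reads are the lowest integers that fit both values. True reads may be a multiple of them, and the intervals are then too wide. Where 1 library was at 0, the reads rest on the other value alone. These steps were tried on simulated data in which every gene length was whole. That simulation does not cover features whose length did not come out whole, nor the shortest gene models.

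The named genes are the 6 members, every matched gene of 7 lists of path genes and the cell marker lists. Results for some genes of these lists are not reported here, and the counts leave them out. Members and lists were chosen with earlier results of these data known. The level of Mitf over all isoforms does not check the genotype labels and was not used. Promoter and protein sequences were not used here, so the planned motif and protein comparisons were not run. Alternatives were pseudocounts, minimum RPKM values, other thresholds, library scalings and summed features. Computation was done in Python 3.11.15 with scipy 1.17.1, pandas 2.3.3 and numpy 2.4.6, and plots with matplotlib 3.10.9.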

Additional observations from a re-analysis of the deposited data

How the results depend on the processing

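No paired analysis was possible because each genotype had 1 library. Across pseudocounts of 0.1 and 1 RPKM, median, upper quartile and TPM scaling, and summed features, all 24 log2 ratios of the 4 genes stayed within their intervals and kept their sign, from 0.06 to 0.13 for SLC12A2, -0.20 to -0.14 for KCNE1, -0.35 to -0.28 for ESRRB and -0.49 to -0.41 for BSND. Summing features could change none of these ratios, as each gene had 1 feature, and the library scalings moved every ratio only by the small amounts given below. No gene of the 4 came to be 2-fold or 1.5-fold apart, and all 4 were detected at minimums from above 0 to 5 RPKM. Scaling to the epithelium reads, chosen after seeing the data, gave -0.044 for KCNE1, 0.22 for SLC12A2 and -0.19 for ESRRB. Centring on the median of that list, also chosen after seeing the data, turned KCNE1 to 0.060 and moved SLC12A2 to 0.32 and ESRRB to -0.085; the cause was not tested. Of 112 list medians, 107 stayed between the median lower and the median upper interval end of the genes in the list. This range is that of a typical single gene and not the counting error of a median. Setting no minimum moved the list of SLC12A2 relatives to 0.028 by adding genes. TPM moved the fibrocyte list to 0.11, and a pseudocount of 1 moved the intermediate cell list to -3.49. A minimum of 5 RPKM moved the supporting cell list from -0.34 to 0.27 and the bone list to -0.90, by leaving fewer genes. For the others the cause was not tested. Median and upper quartile scaling added 0.02 and 0.03 to all log2 ratios, and TPM scaling added -0.04. Depth limits BSND most, with 160 and 105 reads.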
